A study of Homo sapiens with 6 samples.

Results

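Heterotrimeric G proteins and the regulators of G protein signalling (RGS) were compared between 2 sorted populations of MDA-MB-231 cells. Members were all rows of the deposited table whose symbol was that of a G protein alpha, beta or gamma subunit or of a numbered RGS gene. Subunit symbols were GNA with letters or numbers and GNB or GNG with a number, so GNG symbols with a further letter were not taken. This gave 39 of 15024 rows and 38 symbols, since RGS5 had 2 rows. They comprised 13 alpha, 5 beta and 7 gamma subunits and 14 RGS rows. Of these, 37 passed the filter on low values (10 or more in 3 or more libraries), and RGS7 and RGS22 did not. Of the 37, the test called 1 higher (RGS9) and 2 lower (GNG5 and GNAT2) in the CD104high cells, 8.11% against 23.4% of all 14343 genes tested.

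A heterotrimeric G protein couples a receptor of the cell surface to enzymes inside the cell. An activated receptor makes the alpha subunit exchange GDP for GTP, and the alpha subunit and the beta-gamma pair then each act on effectors: alpha s stimulates and alpha i inhibits adenylyl cyclase, alpha q activates phospholipase C beta, and alpha 12 and 13 act on RhoA through exchange factors. RGS proteins speed the hydrolysis of GTP by alpha subunits and so shorten the signal. Forskolin, given to all cells here, activates adenylyl cyclase directly, a step beyond the receptor and alpha s.

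MDA-MB-231 is a long-established triple-negative breast cancer line. The non-targeting guide sgNT was in all 6 samples, and all had received 10 µM forskolin for 14 days before they were sorted, so every comparison is within treated cells and none shows an effect of forskolin. CD104high samples were CD44+ cells with much CD104, the integrin beta 4 protein, which the study describes as hybrid in epithelial-mesenchymal transition. CD104low samples were CD44+ cells with little or no CD104, described as mesenchymal, and each group had 3 libraries numbered 1 to 3. The labels name biological replicates 1 to 3 in each group but do not say that these came from separate cultures. The p-values therefore reflect only how these samples spread, which may be technical. In bulk RNA, fewer cells that express a gene and less RNA per cell cannot be told apart.

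Library depth was 52088604 to 56958065 gene reads. ITGB4, which encodes the sorted protein, was 5.74-fold higher in CD104high (17659 ± 1766 against 3079 ± 743, SD, n = 3, limma adjusted p = 4.1e-05). Other lists moved with the groups: of the 13 interferon response genes tested 11 were higher, and 7 of 18 S phase and 10 of 18 G2 and mitosis genes were lower. Of all genes tested, 12.1% were called higher and 11.3% lower. The epithelial list had 2 of 7 tested genes higher, JUP (1.21 on the log2 scale) and KRT19 (0.41), with summed values of 112467 to 115833 against 92160 to 107244. KRT8 had the largest values of that sum (63302 ± 763 against 56946 ± 6703) and was not called (limma adjusted p = 0.228). In the epithelial list 6 genes had a log2 fold change above 0 and 1, CLDN4, below it. The mesenchymal list had 1 of 7 higher (78628 to 83916 against 67533 to 75658). The mesenchymal sum includes FN1, the gene called higher (28744 ± 2691 against 16975 ± 4932, limma adjusted p = 0.00781). CD44 was lower without overlap (23950 ± 412 against 26785 ± 1560) but not called (limma adjusted p = 0.113). In that list 5 genes had a log2 fold change above 0 and 2 below it. Of 6 immune markers only CD14 was in the table (548 ± 21.7 against 248 ± 13.2, adjusted p = 0.000359). Of the luminal markers 2 of 5 were in the table and 0 were called, and of the endothelial markers 2 of 4 were in the table, with sums of 60.7 to 130 and 88.6 to 114. The part of these differences in the results for the members was not tested.

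The promoters of 3 members are shown because RGS9 and GNG5 carry the most stable calls and GNG7 the largest difference that depends on how replicates are matched. Sequences are from RefSeq on GRCh38.p14, 5′ to 3′ on the strand of the gene, and cover the 250 bases before the RefSeq transcription start. For RGS9 this start lies within the gene as annotated by GENCODE, which begins at 65100812. The capitals mark the E-box forms CACCTG and CAGGTG in RGS9 (chr17:65137120-65137369, plus strand), the AP-1 element TGACTCA in GNG5 (chr1:84506582-84506831, minus strand) and the cAMP response element TGACGTCA in GNG7 (chr19:2702695-2702944, minus strand).
RGS9: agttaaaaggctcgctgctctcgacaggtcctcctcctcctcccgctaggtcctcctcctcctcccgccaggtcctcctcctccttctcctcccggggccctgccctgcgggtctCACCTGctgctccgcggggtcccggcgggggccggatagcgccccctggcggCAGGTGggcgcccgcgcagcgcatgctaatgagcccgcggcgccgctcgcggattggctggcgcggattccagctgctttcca
GNG5: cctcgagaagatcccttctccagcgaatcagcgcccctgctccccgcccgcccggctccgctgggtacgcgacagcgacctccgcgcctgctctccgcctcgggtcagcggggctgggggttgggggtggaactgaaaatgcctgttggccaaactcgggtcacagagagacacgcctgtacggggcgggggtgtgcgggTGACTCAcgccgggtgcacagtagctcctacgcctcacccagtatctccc
GNG7: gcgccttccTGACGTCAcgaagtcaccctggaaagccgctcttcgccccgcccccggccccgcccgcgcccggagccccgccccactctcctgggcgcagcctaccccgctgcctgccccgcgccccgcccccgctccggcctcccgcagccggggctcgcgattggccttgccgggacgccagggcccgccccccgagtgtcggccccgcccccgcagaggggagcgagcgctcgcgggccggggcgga
In these windows the E-box forms began 135 and 83 bases before the RefSeq start of RGS9. The AP-1 element began 50 bases before that of GNG5 and the cAMP response element 241 bases before that of GNG7. The letters were searched on both strands in windows of 300 bases, 250 before to 50 after each start. The table held 66 windows for 32 of the 38 symbols. The full cAMP response element stood in 2.63% of the 16620 windows of genes in the expression table. Among the members it stood in 2 of the 66 windows, those of GNAO1 and GNG7. The AP-1 letters (TGACTCA or TGAGTCA) stood in 3.70% of all windows, and in 3 of the 66 member windows (GNA12, GNAS and GNG5). The E-box letters stood in 19.0% of all windows and in 16 of the 66 member windows, from 9 symbols. These motifs were chosen after promoters of several members had been looked at, and a match describes the letters only.

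Member values ran from 46877 to 52882 for GNAS down to 3.09 to 6.79 for RGS22. They are normalised read counts, the reads of a gene divided by a size factor of its library. The median log2 fold change of the 37 tested rows was 0.01 (0.01 over all genes), and the median size of the change was 0.13 against 0.21 over all genes. A log2 fold change of 0.5 or more, in either direction, was seen in 4 members (RGS9, GNG7, RGS14 and GNAT2), against 16.5% of all genes. The groups did not overlap in 7 members, 4 higher and 3 lower, against 41.2% of all genes (19.9% higher and 21.3% lower).

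**Figure D1:**
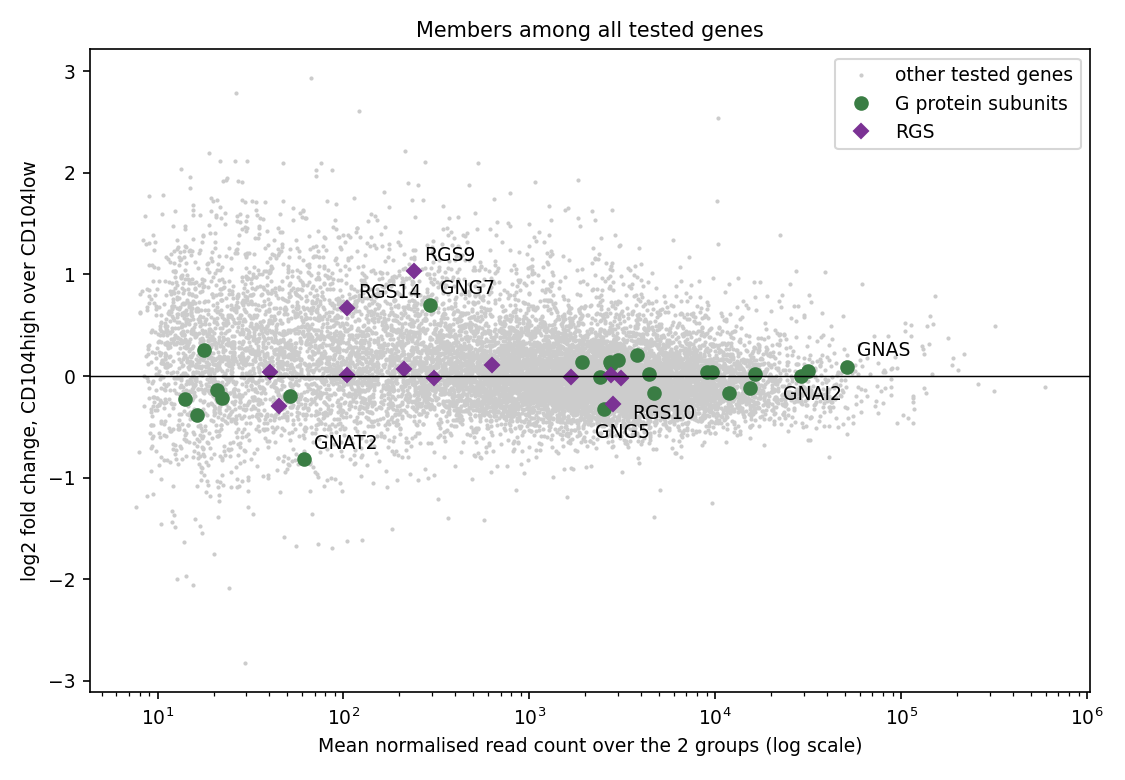
Log2 fold change of CD104high over CD104low (y axis) against the mean normalised read count on a log scale (x axis) for the tested genes in grey, with G protein subunits as circles and RGS as diamonds. Most members lie near 0, while RGS9 at 1.03 and GNAT2 at −0.82 lie farthest from it.

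**Figure D2:**
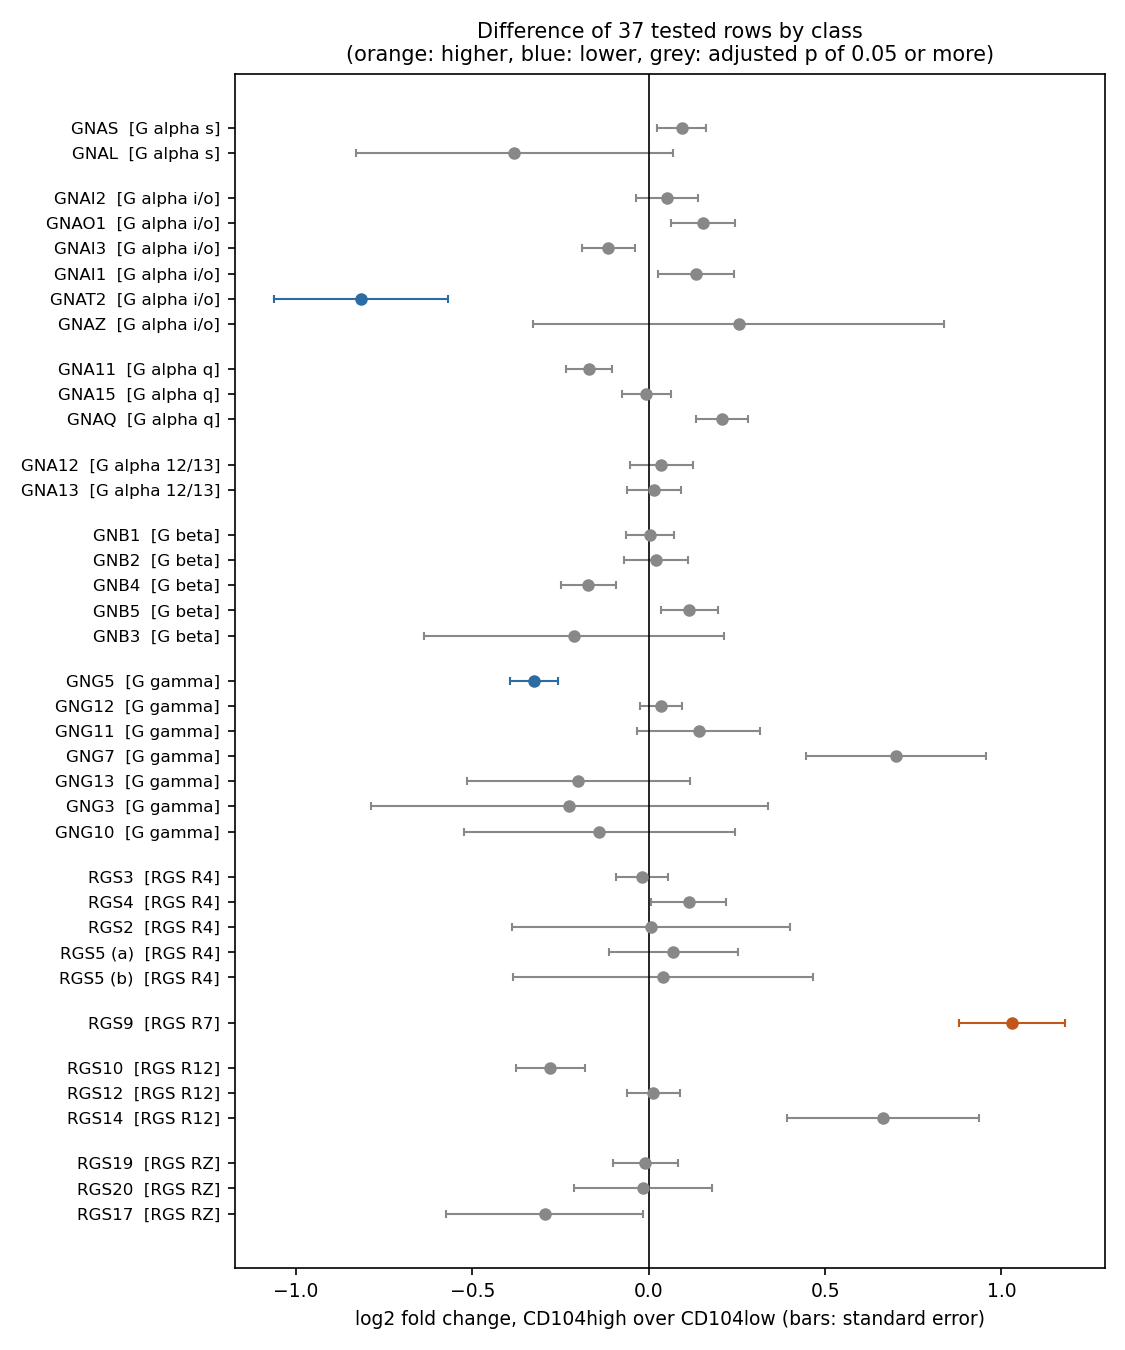
Log2 fold change with its standard error (x axis) for the 37 tested member rows, ordered by class (y axis). Orange marks the member called higher (RGS9), blue the 2 called lower (GNG5 and GNAT2) and grey the 34 not called.

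Among alpha subunits, the stimulatory and inhibitory members with the most reads were not called. GNAS, which encodes alpha s, had normalised read counts of 52882, 52531 and 52204 in CD104high and 51908, 49095 and 46877 in CD104low. All 3 CD104high libraries lay above the CD104low ones, and the difference was not called (log2 fold change 0.09, SE 0.07, limma adjusted p = 0.365). GNAL, the olfactory form of alpha s, had 9.26 to 24.3 and overlapped between groups. Per kilobase of main transcript, GNAS provided 54.7% ± 0.32 of the alpha subunit level in CD104high and 53.4% ± 0.40 in CD104low (SD, n = 3). Per kilobase of all annotated exons its share was 26.8% and 25.6%, below GNAI2 at 28.4% and 27.9%, so the order of these genes depends on the length used.

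GNAI2, the inhibitory subunit with the highest level, had counts of 32551, 31972 and 31324 in CD104high and of 34958, 30397 and 27500 in CD104low. The CD104low libraries lay on both sides of the CD104high ones (log2 fold change 0.05, adjusted p = 0.707). GNAI2 made up 26.6% of the alpha level per kilobase in CD104high and 26.8% in CD104low. The remaining inhibitory subunits GNAI3 (−0.11), GNAI1 (0.13) and GNAO1 (0.15 on the log2 scale), of which alpha o is best known from neurons, did not pass the test, and all 3 overlapped between groups. GNAZ, which encodes alpha z, was near the lower limit at 7.88 to 30.9.

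GNAT2, the cone transducin alpha subunit of the retina, was the only alpha subunit called. Its counts were 38.5, 47.6 and 45.3 in CD104high and 69.9, 95.5 and 70.0 in CD104low. The groups did not overlap, and the mean was 1.79-fold lower in CD104high (43.8 ± 4.73 against 78.5 ± 14.8, log2 fold change −0.82, SE 0.25, limma adjusted p = 0.0376). GNAT2 lies on chromosome 1, 109603267 to 109619929, minus strand (GRCh38), and 97.0% of its exon bases lie within exons of GNAI3 and 3.04% within exons of AMPD2, both on the plus strand. Whether strand was used in counting is not given in the sources used here, and reads of GNAT2 and of these genes cannot be told apart. GNAI3 (14859 ± 1033 against 16073 ± 886, adjusted p = 0.297) and AMPD2 (7396 ± 207 against 8134 ± 594, adjusted p = 0.194) had far more reads and were not called. The call of GNAT2 was lost without any 1 of 5 libraries, all but CD104low replicate 3 (adjusted p 0.0569 to 0.136), and with the trend in length and GC content removed (0.0530). The log2 fold change stayed between −0.92 and −0.67 in the 19 alternatives, and GNAT2 was called with the replicate block, alone (0.0216) and with that trend removed (0.0285).

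The alpha q class, which activates phospholipase C beta, held a pair of genes with differences in opposite directions. GNA11 had 10736, 11000 and 11813 in CD104high against 13035, 12271 and 12419 in CD104low, and GNAQ had 3787, 4010 and 4377 against 3472, 3453 and 3600. For each gene the groups did not overlap, GNA11 being lower and GNAQ higher in CD104high. Neither passed the main test (GNA11 −0.17, SE 0.07, adjusted p = 0.0872, and GNAQ 0.21, SE 0.07, adjusted p = 0.0675). With the replicate block GNAQ passed (adjusted p = 0.0346) and GNA11 did not (0.0671), whereas with the length and GC trend removed both did (0.0269 for GNAQ, and 0.00609 for GNA11 at −0.32). GNA15, the form best known from blood cells, had 2398 ± 46.5 and 2411 ± 82.9.

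Within the alpha q class GNA11 held 60.7% ± 0.29 of the level per kilobase in CD104high and 64.5% ± 1.23 in CD104low, a difference of −3.81 percentage points (exact two-sided permutation p = 0.1, the smallest that 3 against 3 libraries allow). GNAQ held 14.0% ± 0.41 and 11.4% ± 0.34 (exact p = 0.1). In all, 38 such shares of a member in its class were tested, 10 of them at the smallest p, and none can pass 0.05 in this design. The alpha 12 and 13 class, which acts on RhoA, had 0 of 2 members called by limma, at an unadjusted p under 0.05 or in any alternative. GNA12 had 8516, 8687 and 10161 in CD104high and 8922, 8142 and 9599 in CD104low, which overlapped (0.04, adjusted p = 0.803). GNA13 had 4426 ± 213 and 4384 ± 315 (0.02, adjusted p = 0.906).

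No beta subunit was called by limma, 0 of 5 had an unadjusted p under 0.05, and none was called in any of the 19 alternatives. GNB1 had counts of 28347, 28364 and 29784 in CD104high and 30423, 28774 and 27124 in CD104low, which overlapped (log2 fold change 0.00, SE 0.07). GNB1 and GNB2 together carried nearly all of the beta level per kilobase, GNB1 with 48.3% and 48.4% and GNB2 with 46.3% and 45.9% in CD104high and CD104low. GNB4 had 4417 ± 197 against 4982 ± 399 (−0.17, adjusted p = 0.138), and 27.6% of its exon bases are shared with an antisense gene. GNB5, the beta subunit that pairs with RGS proteins of the R7 class, had 2844 ± 175 against 2626 ± 174 (0.12, adjusted p = 0.332). GNB3, low at 12.3 to 29.9, was not called.

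Among gamma subunits, which are lipid-modified and hold the beta-gamma pair at the membrane, GNG5 was lower in CD104high. Its counts were 2266, 2233 and 2190 in CD104high and 2692, 2810 and 2884 in CD104low. Every CD104high library lay below every CD104low library, and the spread within each group was small. The mean was 1.25-fold lower (2230 ± 38.4 against 2795 ± 96.5, log2 fold change −0.33, SE 0.07, limma adjusted p = 0.00864). GNG5 lies on chromosome 1, 84498325 to 84506565, minus strand (GRCh38). A processed transcript on the same strand shares 30.9% of its exon bases and SPATA1, on the opposite strand, 10.7%, so some of its reads could be assigned to either. The call was lost without both libraries numbered 3 (adjusted p = 0.0570).

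GNG7 showed a large difference in every numbered pair but also differed between replicates. Its counts were 319, 306 and 446 in CD104high and 180, 169 and 330 in CD104low. Replicate 3 was high in both groups, so that CD104low replicate 3 lay above 2 CD104high libraries and the groups overlapped. The differences by pair were 0.82, 0.85 and 0.43 on the log2 scale. The main test did not call GNG7 (0.70, SE 0.25, limma adjusted p = 0.0741), whereas with the replicate block it was higher (adjusted p = 0.00391). Leaving out CD104low replicate 3 also gave a call (1.00, adjusted p = 0.00525), as did leaving out the replicates 3 of both groups (0.83, adjusted p = 0.00287). Removing the length and GC trend without the block gave no call (0.62, adjusted p = 0.113).

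GNG12 and GNG11, the other gamma subunits with many reads, were not called by the main test. GNG12 had 9727 ± 273 in CD104high and 9492 ± 50.5 in CD104low (0.03, adjusted p = 0.711). GNG11 had 2510, 2460 and 3596 against 2567, 2036 and 3166 and, like GNG7, was high in replicate 3 of both groups (0.14, adjusted p = 0.600). GNG11 was called higher only when the replicate block was combined with removal of the length and GC trend (0.20, adjusted p = 0.0296). Per kilobase, GNG5 provided 42.4% ± 2.25 of the gamma level in CD104high and 49.2% ± 1.46 in CD104low, and GNG12 38.6% ± 0.99 and 34.9% ± 1.41, each with an exact permutation p of 0.1. This order, and the difference in the share of GNG12, rest on the division by length. Without it GNG12 held 63.9% and 62.6% (exact permutation p = 0.6) and GNG5 14.7% and 18.4% (exact permutation p = 0.1). GNG3, GNG10 and GNG13 were low, between 6.79 and 69.0, and share 50.7%, 73.1% and 19.6% of their exon bases with BSCL2, DNAJC25-GNG10 and CHTF18.

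**Figure D3:**
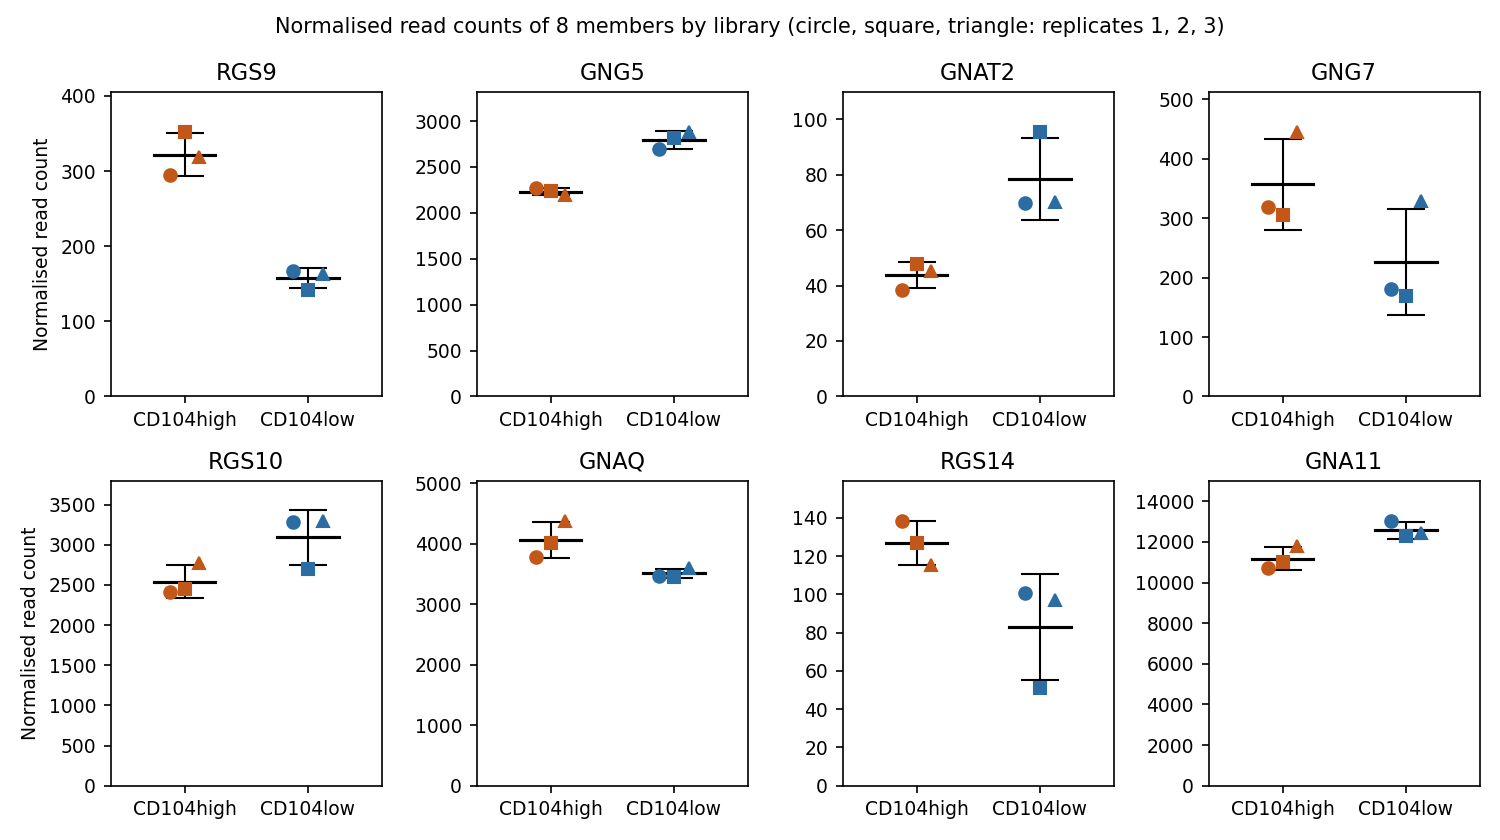
Normalised read count (y axes, from 0) of 8 members in each library by group (x axes), with circles, squares and triangles for replicates 1, 2 and 3 and bars for the mean ± SD. RGS9, GNG5 and GNAT2 part the groups, and for GNG7 the triangles lie above the other libraries of their group.

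RGS9 was the member with the largest difference and the only one called higher. RGS9 belongs to the R7 class, acts on alpha i/o and transducin, and is best known from photoreceptors and the striatum. Its counts were 294, 352 and 319 in CD104high and 167, 142 and 163 in CD104low. The lowest CD104high library lay well above the highest CD104low library, and the mean was 2.05-fold higher (322 ± 29.1 against 157 ± 13.4, log2 fold change 1.03, SE 0.15, limma adjusted p = 0.00165). RGS9 lies on chromosome 17, 65100812 to 65227703, plus strand (GRCh38), and shares no exon bases with another annotated gene. RGS9BP, which anchors RGS9 at the membrane, had 60.3 ± 10.3 against 39.5 ± 9.37 and was not called (0.61, adjusted p = 0.148). RGS7, also of the R7 class, had 1.99 to 7.20 in CD104high and 3.94 to 10.3 in CD104low and was not tested.

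The R12 class, which acts on alpha i/o, held the RGS gene with the highest level per kilobase, RGS10. Its counts were 2407, 2447 and 2772 in CD104high and 3283, 2696 and 3296 in CD104low. CD104low replicate 2 lay below CD104high replicate 3, so the groups overlapped, although each numbered pair was lower in CD104high. The log2 fold change of −0.28 (SE 0.10) had a limma adjusted p of 0.0642, and 0.0198 with the replicate block. It was also called without CD104high replicate 3 (0.0474) and without CD104low replicate 2 (0.0253). With the length and GC trend removed the log2 fold change was −0.15 and was not called, with the block (0.0722) or without it (0.189). RGS10 provided 52.1% ± 1.58 of the RGS level per kilobase in CD104high and 57.6% ± 2.70 in CD104low, but 21.4% and 25.3% without division by length, where RGS3 had 26.2% and 25.8%.

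RGS14, a scaffold that also binds Ras and Rap, had 138, 127 and 115 in CD104high and 101, 51.2 and 96.8 in CD104low. The groups did not overlap, and CD104low replicate 2 was far below the rest. The difference of 0.66 (SE 0.27) was not called (adjusted p = 0.105), was at the threshold with the replicate block (0.0498), and was called without the libraries numbered 3 (0.87, adjusted p = 0.0361). Without CD104low replicate 2 it was 0.35 (adjusted p = 0.295), and the call under the block was lost with the length and GC trend removed (0.0812). RGS12, the largest protein of the class, had 2746 ± 157 and 2719 ± 107 (0.01, adjusted p = 0.915).

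The R4 class, small RGS proteins that act on alpha i and alpha q, had 0 of 5 rows called by limma, 0 at an unadjusted p under 0.05 and 0 in any alternative. RGS3 had 3253, 2938 and 3134 in CD104high and 3290, 3169 and 2992 in CD104low, which overlapped (−0.02, adjusted p = 0.874). RGS4 had 654 ± 53.3 and 604 ± 18.9 (0.11, adjusted p = 0.479). RGS2, which acts on alpha q and is known as a gene induced by cAMP, had 105, 121 and 74.1 in CD104high and 144, 136 and 47.4 in CD104low. It was lowest in replicate 3 of both groups, and the mean difference was 0.01 with an SE of 0.40. The protein-coding RGS5 row had 217 ± 42.4 and 205 ± 20.1, and the second row of that symbol, annotated as antisense and sharing 534 exon bases with the first on the same strand, 38.8 ± 6.20 and 41.9 ± 20.9.

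The RZ class, which acts on alpha z and alpha i, likewise had 0 of 3 called by limma, at an unadjusted p under 0.05 or in any alternative. RGS19, its leading member, had 1587, 1608 and 1784 in CD104high and 1854, 1587 and 1579 in CD104low, which overlapped (−0.01, adjusted p = 0.952). RGS20 had 300.5 ± 30.0 and 310.4 ± 82.8, and RGS17 40.1 ± 6.10 and 49.9 ± 11.6 (−0.30, adjusted p = 0.483). RGS22, an atypical member, had 4.94, 3.97 and 3.09 in CD104high and 6.79, 5.91 and 4.12 in CD104low and was not tested.

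**Figure D4:**
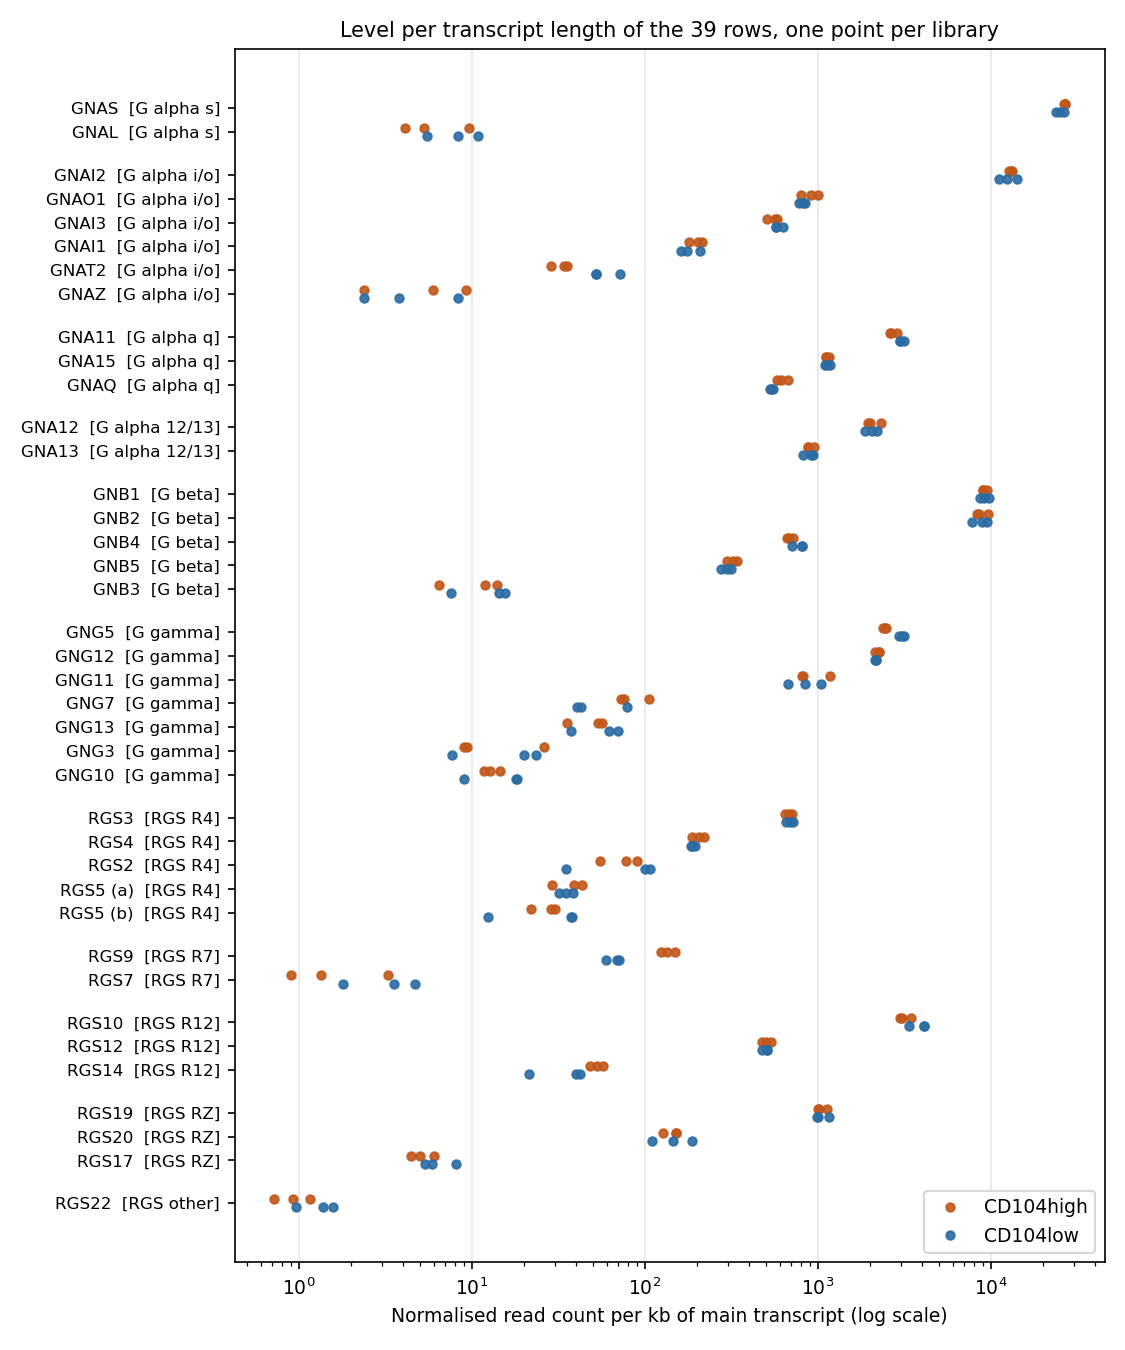
Normalised read count per kilobase of main transcript on a log scale (x axis) for the 39 rows by class (y axis), with 1 point for each of the 3 CD104high and 3 CD104low libraries. GNAS, GNAI2, GNB1 and GNB2 have the highest levels, and the points of RGS9 part by group.

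With the replicate number as a block, 7 members were called, GNAQ, GNG7, RGS9 and RGS14 higher and GNAT2, GNG5 and RGS10 lower, against 32.8% of all genes (17.4% higher and 15.4% lower). DESeq2 on recovered reads called 6, against 27.2% of all genes, and 8 had an unadjusted limma p under 0.05, against 36.9% of all genes. The authors' deposited table called RGS9, GNG5, GNAT2, GNG7 and RGS10 (adjusted p 1.16e-09, 1.67e-05, 0.0197, 0.0266 and 0.0482), against 29.6% of its genes, and gave GNAQ 0.0526. In 9 of the 37 tested rows all numbered pairs were higher in CD104high, in 7 all were lower and in 21 they were mixed, against 30.9% of all genes with all pairs higher and 30.4% with all lower. GNAT1, GNAT3, GNA14, GNG2, GNG4, GNG8, RGS1, RGS6, RGS8, RGS11, RGS13, RGS16, RGS18 and RGS21 were not analysed here.

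Receptors act upstream of the G proteins. Of 52 listed G protein-coupled receptors 40 were tested, 11 called higher and 2 lower, against 12.1% and 11.3% of all genes, with a median log2 fold change of 0.26 against 0.01 over all genes. Among those with the smallest p were LPAR2, a receptor for lysophosphatidic acid (1427 ± 91.3 against 856 ± 72.0, 0.74, limma adjusted p = 0.00103) and GPR153, an orphan receptor (575 ± 68.4 against 327 ± 27.8, 0.81, adjusted p = 0.00277). Chosen after their values were seen, the oxytocin receptor OXTR had 1387 ± 363 against 679 ± 214 (1.04, adjusted p = 0.00909) and LPAR5 56.3 ± 6.59 against 21.8 ± 10.3 (1.43, adjusted p = 0.0201). HRH1, the histamine H1 receptor, was called lower (−0.25, adjusted p = 0.0338).

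Receptor kinases and arrestins, which shut off receptors, had 1 higher and 1 lower of 7, 28.6% called against 23.4% of all genes. GRK6 was 1.38-fold lower (2966 ± 84.8 against 4102 ± 502, adjusted p = 0.00579), and beta-arrestin 1 (ARRB1) was 1.20-fold higher (3135 ± 149 against 2604 ± 168, adjusted p = 0.0313). GRK3 had −0.31 (adjusted p = 0.0729, and 0.0487 with the replicate block). Of 11 chaperones and modulators that act on G proteins without a receptor, 3 were higher and 1 lower, 36.4% called against 23.4% of all genes. They were NUCB1 (0.48), GPSM1, which holds alpha i in its GDP form (0.38), NUCB2 (0.42) and PDCL3 (−0.28). Of 9 other proteins with an RGS domain, 11.1% were called, against 23.4% of all genes. AXIN1, a scaffold of the Wnt pathway, was lower (−0.29, adjusted p = 0.0139) and 0 were higher.

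Among adenylyl cyclases, the effectors of alpha s and alpha i, 3 of 4 tested were called, 75% against 23.4% of all genes. ADCY6 (3422 ± 168 against 2811 ± 168, adjusted p = 0.0229) and ADCY9 (4614 ± 389 against 3798 ± 241, adjusted p = 0.0350) were higher, and ADCY3 was lower (2979 ± 83.3 against 3498 ± 48.4, adjusted p = 0.0284). By limma, 0 of 5 alpha q effectors, 0 of 6 alpha 12 and 13 effectors, 0 of 2 beta-gamma effectors and 0 of 10 enzymes of lipid modification were called, and 1 of these lists' genes, ARHGEF1, had an unadjusted p under 0.05. With the replicate block 0 genes of these lists were called, against 32.8% of all genes. Of 10 target genes of cAMP and CREB, 30% were called, against 23.4% of all genes. PDE4B, a phosphodiesterase that degrades cAMP, was higher (0.70, adjusted p = 0.00265). CREM (−0.66, adjusted p = 0.0038), which encodes factors that bind cAMP response elements, and DUSP1 (−0.91, adjusted p = 0.00393), a phosphatase of MAP kinases, were lower. In all, 18 of 101 tested genes of these signalling lists were higher and 8 lower, 25.7% called against 23.4% of all genes.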

How the data were processed

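RNA of 6 samples was analysed, 3 CD104high and 3 CD104low, grouped by their labels. The study's MLL3-mutant cells were not analysed here. GRCh38.p13 (hg38), FastQC, STAR 2.4.0, DESeq2 1.30.1 and featureCounts 1.5.0 are named per the submitters' processing notes, and the strand setting is not given in the sources used here. Values per library are signal: read counts per gene that the authors deposited after division by a size factor. Their table also gives deposited log2 fold changes, a score (the test statistic) and raw and adjusted p-values. No per-sample column was left unmapped (0). The lowest recovered value in each library was 1 read, so genes with 0 reads in a library were not analysed here.

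In R 4.3.3, limma 3.58.1 with its trend option was fitted to log2(value + 1) of the 14343 genes that reached 10 in 3 or more libraries. The filter removed 681 genes. The p-values were adjusted by Benjamini-Hochberg over all genes and called under 0.05. On the log2(value + 1) scale, fold changes of low genes are understated. Adjusted p-values are limma's unless another tool is named, and the fit was tested on simulated data. Members and lists were chosen with earlier results of these data known. The text accounts for every member, gives per-library values for those called, for the leading member of each class and for members with groups that do not overlap and a difference of at least 0.5 (log2), and takes the 3 genes with the smallest p of each other pathway list. A gene that this rule takes is not reported here. Others with per-library values or of the lists were chosen after their values were seen.

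Levels per kilobase used the main transcript of GENCODE 29 on GRCh38, which matched 14994 genes, 4244 with the same version, and all 39 members. The transcript used for GNAI3 has 27174 bases, which makes its level per kilobase uncertain. Shares were tested with exact two-sided permutation tests.

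Same-numbered samples deviated together, with correlations across genes of 0.17, 0.32 and 0.48 for numbers 1, 2 and 3. Between numbers 1 and 2 the correlations were 0.09 and 0.13, and between number 3 and either of them −0.37 to −0.22. The numbers therefore pair the samples from the data, not from the labels. They mainly set number 3 apart, and numbers 1 and 2 are only weakly told apart. Alternatives were the replicate block, each library and both libraries numbered 3 left out, pseudocounts of 0.1 and 5, no filter, scaling by total reads, limma without the trend, a threshold of 0.01, a trend in length and GC content removed, and edgeR 4.0.16 with TMM or DESeq2 size factors, DESeq2 1.42.0 and limma-voom on reads recovered from the values (within 0.1 of a whole number). At least 99.99% of the values of each library lay within that limit. The share was 100% in every library except CD104high replicate 1 (99.9933%). The size of 1 read was 0.970 to 1.030 and was closest to 1 in CD104high replicate 2 (0.993). Added after seeing the data were the length and GC trend with the block, shares per kilobase of all exons, and shares without both libraries numbered 3.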

Additional observations from a re-analysis of the deposited data

How the results depend on the processing

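RGS9 was called higher in all 19 alternatives fitted (log2 fold change 0.96 to 1.09), GNG5 lower in 18 and GNAT2 lower in 13. With the replicate block, 4 members were higher and 3 lower, and 4 were higher with the block once length and GC effects had been taken out. Members called higher numbered 3 without both libraries numbered 3, 3 with DESeq2, 2 with scaling by total reads and 2 with length and GC effects taken out. Members called lower numbered 1 without both libraries numbered 3 and 1 at a threshold of 0.01. Leaving out 1 library gave 1 to 2 members higher and 1 to 2 lower, 1017 to 1766 genes higher and 799 to 1547 lower, and 8 to 14 genes of the signalling lists higher and 4 to 8 lower. The counts of the signalling lists moved by over 1.5 times without CD104high replicate 1 (8 and 5), CD104high replicate 2 (10 and 4) or CD104low replicate 1 (9 higher). Those of all genes did so without CD104high replicate 1 (1017 and 799), CD104high replicate 2 (1120 and 901) or CD104low replicate 2 (1030 lower). The counts for all genes were 1730 higher and 1625 lower. They were 936 lower without the trend, 2761 higher and 2631 lower with the block after length and GC effects were taken out, and 826 and 610 at a threshold of 0.01. The signalling lists had 11 higher and 5 lower without the trend, 13 lower after length and GC effects were taken out, 17 lower when the block was added, and 8 and 4 at a threshold of 0.01. Without division by length, the share of GNG5 among gamma subunits differed by −3.75 points (−6.79 per kilobase), and that of RGS10 within the R12 class by −5.42 points (−2.76 per kilobase). The cause of these changes was not tested, except that a stricter threshold calls fewer genes by construction. Of the 34 members not called, 28 were called in none of the alternatives, and 19 changed sign in at least 1 of them while uncalled. The median log2 fold change of all genes lay between 0.0039 and 0.028 over the scalings. Members with few reads had standard errors up to 0.58, so smaller differences were not detectable at this depth.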
